A study of Mus musculus with 4 samples.

Results

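Expression of 10 circadian clock genes (Arntl, Clock, Per1, Per2, Per3, Cry1, Cry2, Nr1d1, Nr1d2 and Dbp) was examined by single-nucleus RNA sequencing in the mouse cerebral cortex. The genes were taken by their symbols, and each matched 1 of the 21933 genes counted. The series compared mice lacking the creatine transporter with controls. Nuclei came from the right cerebral cortex of 2 control (CrT+/y) and 2 creatine transporter knockout (CrT-/y, hereafter CrT-KO) males, with 1 library per animal. CrT-KO mice carried a deletion of exons 5 to 7 of the X-linked gene Slc6a8 in all cells, so that no cell type served as an unaffected control. The animals were of the C57Bl/6J strain, untreated and at postnatal day 100, mutants and controls being drawn from shared litters. The litter of each of the 4 mice is not given in the sources used here. The study's methods give a single window of the light phase for killing the animals used for RNA sequencing, so no library covers another phase of the daily cycle, and the hour at which each of these 4 mice was killed is not given in the sources used here.

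The clock is a feedback loop of transcription that most mammalian cells run on their own. Arntl (also called Bmal1) and Clock encode the 2 partners of an activator that binds E-boxes and drives the Per and Cry genes, whose proteins return to the nucleus and inhibit that activator. Nr1d1 and Nr1d2 encode the REV-ERB nuclear receptors, which repress Arntl and other genes at ROR elements, and Dbp encodes an activator that binds D-boxes in output genes. In the cortex the loop is paced by signals from the suprachiasmatic nucleus, and the members peak at different times of day, so that a level read at 1 time is a single point on a cycle.

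The promoters of 4 members are shown because they hold exact copies of the motifs that link the members to each other. Each runs from 250 bases before to 50 bases after the start of transcription in RefSeq (GRCm38.p6), 5′ to 3′ on the strand of the gene, with the motif in capitals. The Arntl window (chr7:113207261-113207560, + strand) holds the core of a ROR element, TAGGTCA, 30 bases after the start. The Cry1 window (chr10:85185005-85185304, - strand) holds the E-box CACGTG 60 bases before the start, and the Per1 window (chr11:69098699-69098998, + strand) holds it 166 bases before the start. The Per3 window (chr4:151044616-151044915, - strand) holds 2 copies of the D-box TTATGTAA, 205 and 158 bases before the start.
Arntl: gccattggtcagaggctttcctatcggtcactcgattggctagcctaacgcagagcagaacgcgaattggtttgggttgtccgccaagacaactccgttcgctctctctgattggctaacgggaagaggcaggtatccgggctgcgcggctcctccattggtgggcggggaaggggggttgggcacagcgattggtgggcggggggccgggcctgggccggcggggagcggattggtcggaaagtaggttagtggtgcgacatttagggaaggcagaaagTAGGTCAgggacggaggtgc
Cry1: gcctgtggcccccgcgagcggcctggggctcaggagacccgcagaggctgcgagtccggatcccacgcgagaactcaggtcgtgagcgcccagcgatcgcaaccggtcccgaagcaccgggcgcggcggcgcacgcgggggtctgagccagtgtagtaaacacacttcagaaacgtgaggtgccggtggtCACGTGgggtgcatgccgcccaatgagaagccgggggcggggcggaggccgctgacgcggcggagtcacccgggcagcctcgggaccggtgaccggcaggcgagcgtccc
Per1: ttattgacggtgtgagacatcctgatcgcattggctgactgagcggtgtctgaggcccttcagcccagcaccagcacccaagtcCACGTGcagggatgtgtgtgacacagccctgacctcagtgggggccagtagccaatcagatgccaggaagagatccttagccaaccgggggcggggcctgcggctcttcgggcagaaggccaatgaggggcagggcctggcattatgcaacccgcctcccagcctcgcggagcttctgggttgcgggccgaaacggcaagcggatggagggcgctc
Per3: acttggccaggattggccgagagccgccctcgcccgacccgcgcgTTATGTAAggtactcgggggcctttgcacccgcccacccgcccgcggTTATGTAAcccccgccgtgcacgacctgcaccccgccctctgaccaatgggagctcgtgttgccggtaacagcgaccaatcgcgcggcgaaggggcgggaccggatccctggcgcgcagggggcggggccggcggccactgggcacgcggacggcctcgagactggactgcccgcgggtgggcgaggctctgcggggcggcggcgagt
Entries were matched for 9 members (13 start sites in all), Per2 being the member without one, and 4 members held a match. The motifs were searched on both strands, and no copy of one overlapped a copy of another. Among 32851 mouse promoters of the same length, 7.15% held CACGTG, 2.61% held TAGGTCA and 0.938% held TTATGTAA. These matches describe the sequence only.

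The libraries held 51507483 to 65240843 UMIs (unique molecular identifiers, each 1 captured RNA molecule). Of 35694 nuclei, 1213 were removed as doublets, and 31296 of the remaining 34481 fell into clusters named by marker genes, with the clock genes left out of the clustering. Named nuclei comprised 15382 excitatory neurons, 7969 inhibitory neurons, 4306 oligodendrocytes, 2231 microglia, 727 oligodendrocyte precursor cells (OPCs), 490 astrocytes and 191 endothelial cells and pericytes. The inhibitory group included 2534 nuclei with the markers of medium spiny neurons (MSN-like), a striatal cell type, although the tissue was labelled as cortex. It also held unnamed subclusters of 321 and 91 nuclei with Slc17a6, a glutamate transporter gene, among their leading genes. Comparisons of excitatory with inhibitory neurons are therefore between these groups as clustered, not between cortical projection neurons and interneurons alone. Any pair of libraries shared 12 to 19 nucleus barcodes. Slc6a8 itself was counted 381 and 357 times in the controls, against 106 and 84 times in CrT-KO, which was -1.98 as a log2 fold change (SE 0.16, edgeR adjusted p = 0.0126). The targeted gene was thus low in both libraries labelled CrT-KO, and the position of the remaining UMIs within the gene was not analysed here.

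Of the 10 clock genes, 9 could be measured. Levels are given as CPM, the UMIs of a gene in each 1000000 UMIs of the same population and library. Summed over all nuclei, Clock had 38273 UMIs and Arntl 23516 in the 4 libraries, and the activator pair was the best sampled. The repressors Cry2 (16831), Nr1d2 (8653), Per2 (5404), Per1 (3978) and Cry1 (3348) followed, while Nr1d1 had 692 and Dbp 487. Because nuclear RNA was counted over whole gene bodies, long genes collect more UMIs, and levels were compared between genes only per kilobase (kb) of gene span. On that scale, Cry2 was highest at 2.41 CPM per kb over all nuclei, followed by Clock at 1.77, Per1 at 1.16, Nr1d2 at 1.08 and Arntl at 0.968. Per2 (0.545), Dbp (0.409), Nr1d1 (0.403) and Cry1 (0.275) were lower.

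Per3, the third period gene, had 0 UMIs in all 4 libraries. Per3 (chromosome 4, 151003652 to 151044665, - strand, GRCm38) lies entirely within Camta1, a transcription factor gene that spans 150917322 to 151861876 on the same strand and had 110618 UMIs. The authors' reference treated the whole gene body as exon, so every Per3 read also lay in Camta1. Among all listed genes wholly within another listed gene on the same strand, 381 of 383 (99.5%) had no UMI. The share was 10.8% for the 507 genes wholly within a gene on the opposite strand and 12.9% for the 20926 genes within none. The count of Per3 therefore does not measure its RNA, and Per3 is left out of all tests. The gene bodies of Nr1d1 and Dbp overlap a gene on the opposite strand (Thra and Sphk2) over 14.5% and 14.4% of their span, and the remaining 7 members overlap no listed gene.

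The first comparison was between cell types, over the same 4 animals. The UMIs of each population were added up within a library and tested with edgeR, which scales libraries by trimmed means (TMM), and a gene was called at a Benjamini-Hochberg adjusted p under 0.1. Arntl was highest in astrocytes (155 ± 55.9 CPM, mean ± SD, n = 4 libraries of both genotypes) and excitatory neurons (114 ± 10.7), and lowest in oligodendrocytes (36.4 ± 5.52). In excitatory neurons it was 118 and 127 CPM in the controls and 103 and 108 in the CrT-KO libraries. In oligodendrocytes the same libraries gave 43.5, 37.7, 33.7 and 30.7. The ranges of the neuronal and oligodendrocyte libraries were far apart (log2 difference 1.99, SE 0.10, edgeR adjusted p = 1.11e-26). Inhibitory neurons lay between them at 76.2 ± 7.58 CPM, below excitatory neurons in every library (log2 difference 0.74, SE 0.05, edgeR adjusted p = 1.78e-21). The astrocyte libraries ran from 83.5 to 219 CPM and overlapped the excitatory ones. Whether astrocytes and excitatory neurons differed in Arntl depended on the scaling, with an excitatory minus astrocyte difference of 0.03 with TMM (SE 0.13, edgeR adjusted p = 0.877) and -0.36 with library totals (adjusted p = 0.0157).

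Clock, the partner of Arntl, had a flatter profile. It was highest in oligodendrocytes, at 214, 219, 237 and 237 CPM, and lowest in astrocytes (135 ± 19.0). Excitatory neurons had 169 ± 7.83 CPM and inhibitory neurons 163 ± 3.15. The oligodendrocyte libraries all lay above the highest microglial library (log2 difference 0.64, SE 0.10, edgeR adjusted p = 1.41e-07). Against excitatory neurons, the higher level in oligodendrocytes was called with library totals (-0.42, edgeR adjusted p = 8.11e-07) but not with TMM scaling (-0.09, SE 0.07). The 2 partners thus ranked oligodendrocytes at opposite ends by mean CPM. Arntl in oligodendrocytes was 31.9% of the excitatory level, within the 9.41% to 47.7% of 11 excitatory neuron markers there, so it may include background. The difference in Clock between excitatory and inhibitory neurons depended on the scaling, at 0.22 with TMM (edgeR adjusted p = 0.00294) and 0.06 with library totals (adjusted p = 0.447).

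**Figure D1:**
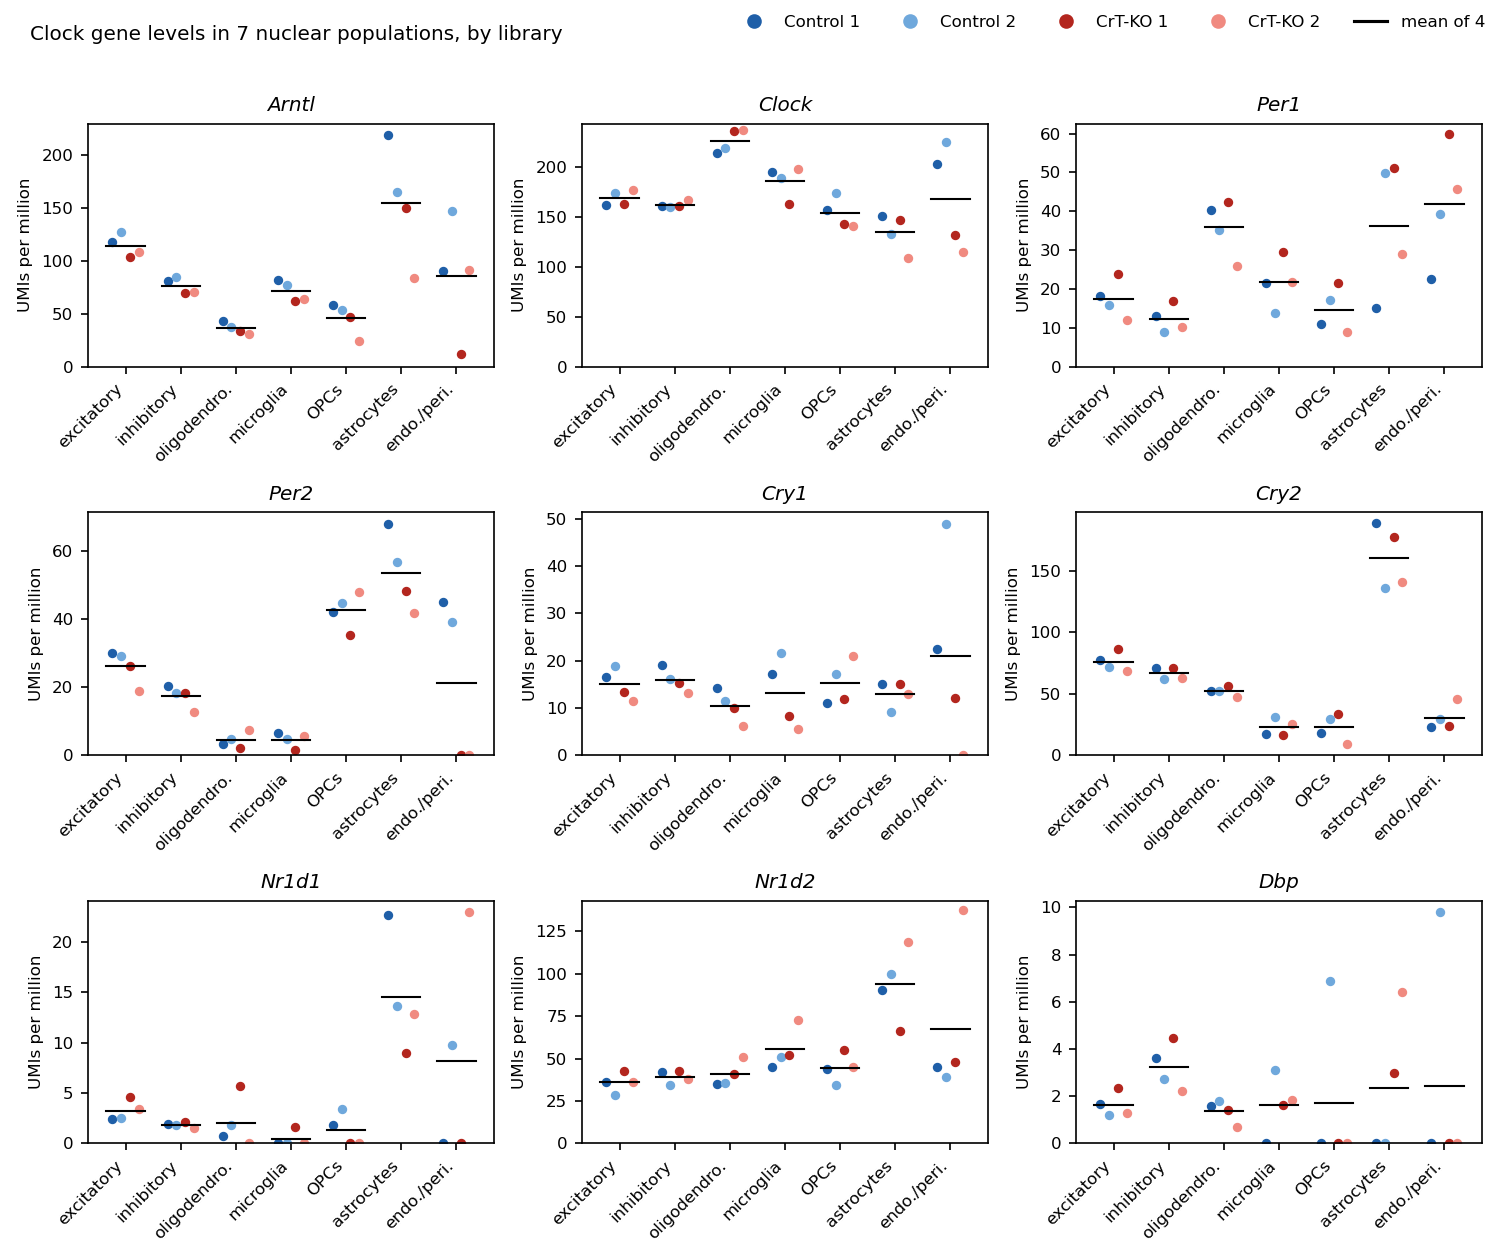
Levels of the 9 measured clock genes (CPM, y axes from 0) in 7 cell populations, with 1 point per library and the mean of the 4 as a bar. Arntl is lowest in oligodendrocytes (36.4), and Per2 is low in both oligodendrocytes (4.40) and microglia (4.55). Clock is highest in oligodendrocytes, and Cry2 and Nr1d2 are highest in astrocytes.

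Per2 had the widest span of the well-sampled members. It was 53.6 ± 11.4 CPM in astrocytes, 42.5 ± 5.37 in OPCs, 26.0 ± 5.15 in excitatory neurons and 17.4 ± 3.31 in inhibitory neurons. Microglia (4.55 ± 2.08 CPM, 10 UMIs in all) and oligodendrocytes (4.40 ± 2.34, 26 UMIs) were far lower. In the oligodendrocyte lineage the OPC libraries had 42.0, 44.9, 35.4 and 47.9 CPM, and the mature oligodendrocytes of the same animals had 3.16, 4.78, 2.15 and 7.50. Every OPC library thus lay far above every oligodendrocyte library, and Per2 was higher in OPCs (fitted log2 difference oligodendrocytes minus OPCs -3.22, SE 0.32, edgeR adjusted p = 1.60e-13). The residual Per2 in oligodendrocytes and microglia was 16.9% and 17.5% of the excitatory level. A set of 11 excitatory neuron markers, which these cells should lack, had median levels of 19.9% and 30.6% of the excitatory level there, so this low Per2 level was read as background, and the fitted differences of Per2 from these cells give no exact size. The markers' medians were 9.97% in OPCs and 10.8% in astrocytes.

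Per1 ordered the cells differently from Per2. It was 36.0 ± 7.31 CPM in oligodendrocytes, with 40.3 and 35.3 in the controls and 42.3 and 25.9 in the CrT-KO libraries. It was 17.5 ± 4.97 CPM in excitatory and 12.3 ± 3.52 in inhibitory neurons. The oligodendrocyte libraries all exceeded the highest excitatory one, at 23.9 CPM (log2 difference excitatory minus oligodendrocytes -0.71, SE 0.12, edgeR adjusted p = 9.11e-07). The 2 period genes therefore differed in opposite directions between these populations, with Per2 at 2.86 on the same scale (SE 0.22, adjusted p = 2.53e-18). Astrocytes also had more Per1 than excitatory neurons (difference -0.86, adjusted p = 0.00194), but this call was lost without Control 2 (-0.50, adjusted p = 0.172).

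Cry2 was highest in astrocytes, with 189 and 136 CPM in the control and 177 and 141 in the CrT-KO libraries. Excitatory neurons followed at 76.2 ± 8.08 CPM, inhibitory neurons at 66.5 ± 4.81 and oligodendrocytes at 51.9 ± 3.65. Microglia and OPCs were the lowest, both at 22.5 CPM. In microglia this was 29.6% of the excitatory level, close to the 30.6% median of the excitatory markers, and could not be told from background. In OPCs it was 29.5%, against a marker median of 9.97% (range 5.19% to 37.7%). Each of the first 3 steps down this order was called with TMM and with library totals, and the step from excitatory neurons to astrocytes was -0.65 (SE 0.12, edgeR adjusted p = 7.10e-06). Cry1, the other cryptochrome, spanned only 10.4 to 20.9 CPM over the 7 populations. No neighbouring steps of Cry1 from inhibitory neurons to OPCs and excitatory neurons were called, and the excitatory minus inhibitory difference was 0.07 (SE 0.08). The next step, from excitatory neurons to microglia, was called with TMM (0.86, SE 0.26, edgeR adjusted p = 0.00275). With library totals it was not (0.17, adjusted p = 0.577). Cry1 was also called higher in excitatory neurons than in oligodendrocytes with TMM (0.86, SE 0.19, edgeR adjusted p = 5.51e-05).

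The REV-ERB genes Nr1d1 and Nr1d2 were both highest in astrocytes. Nr1d2 had 90.7 and 99.7 CPM in the control astrocytes and 66.1 and 119 in the CrT-KO ones, against 35.9 ± 5.72 in excitatory neurons. All astrocyte libraries lay above all excitatory libraries, and the difference was -1.04 (SE 0.18, edgeR adjusted p = 8.97e-07). Nr1d1 had 14.5 ± 5.78 CPM in astrocytes on 16 UMIs and 3.24 ± 0.992 in excitatory neurons on 439. Dbp was 3.26 ± 0.991 CPM in inhibitory neurons and 1.62 ± 0.527 in excitatory neurons. Of the 168 Dbp UMIs in inhibitory neurons, 94 came from MSN-like nuclei (6.37 CPM). PV-like (1.32), VIP-like (1.47) and SST-like (0.824) interneuron nuclei lay below the excitatory mean, whereas LAMP5-like ones lay above it (4.19 CPM on 14 UMIs). Nr1d1 and Dbp were too low in the small populations to be kept in the test between populations, so their order is descriptive.

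Between excitatory and inhibitory neurons 5 of 7 tested members were called, all higher in excitatory neurons, where 63.7% of the 9361 genes tested were called in either direction and 33.6% were called higher. Against oligodendrocytes 5 of 7 members were called (77.7% of all genes), against microglia 5 of 7 (76.4%), against OPCs 5 of 7 (59.7%), against astrocytes 5 of 7 (60.3%) and against endothelial cells and pericytes 3 of 7 (45.2%). The share of members called was thus near that of all genes. Over the 21 pairs of populations there were 147 tests and 85 calls, against 54.7% of all gene tests. Going down each member's own order of levels, 18 of 42 neighbouring pairs were called, of which 7 were higher with both scalings and 2 ran against the order of the CPM, both in Clock (microglia over excitatory neurons, -0.54, and endothelial cells and pericytes over inhibitory neurons, -0.55). The other 24 pairs were not called with TMM, and 3 of these were called with library totals, namely Arntl in astrocytes over excitatory neurons (adjusted p = 0.0157) and in microglia over OPCs (adjusted p = 0.0128), and Nr1d2 in inhibitory over excitatory neurons (adjusted p = 0.0320). Replacing TMM by library totals shifted the difference of excitatory neurons from the other populations by 0.16 for inhibitory neurons, 0.33 for oligodendrocytes, 0.29 for OPCs, 0.39 for astrocytes, 0.69 for microglia and 0.84 for endothelial cells and pericytes. The Per2, Arntl and Cry2 differences from oligodendrocytes exceeded that shift, whereas Clock and Nr1d2 in microglia changed sign with it.

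Within the neuronal subclasses, which were named after the markers of cortical projection neurons (IT, intratelencephalic, ET, extratelencephalic, NP, near-projecting and CT, corticothalamic) and of interneurons, Arntl varied about as widely as between the major cell types. It was 151 CPM in L6 IT-like, 142 in L2/3 IT-like and 135 in L4 IT-like nuclei, against 107 in L5 ET-like, 100.2 in L6 CT-like and 55.6 in L6b-like nuclei. Among inhibitory nuclei it was 120.4 CPM in MSN-like nuclei and 55.9 in PV-like (parvalbumin), 49.8 in SST-like (somatostatin) and 48.1 in VIP-like (vasoactive intestinal peptide) nuclei. The 4 MSN-like libraries ran from 98.3 to 145 CPM and did not overlap the PV-like ones, which ran from 50.5 to 61.7. Per2 was 33.5 CPM in L2/3 IT-like nuclei and 11.6 and 10.3 in PV-like and SST-like nuclei, and Per1 was likewise lowest in SST-like (8.09) and PV-like (8.94) nuclei. Cry2 was 88.3 CPM in L4 IT-like nuclei and 88.0 in MSN-like nuclei, and 49.7 in L6b-like nuclei. Dbp in MSN-like nuclei ran from 3.70 to 10.2 CPM. Differences among subclasses were not tested.

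**Figure D2:**
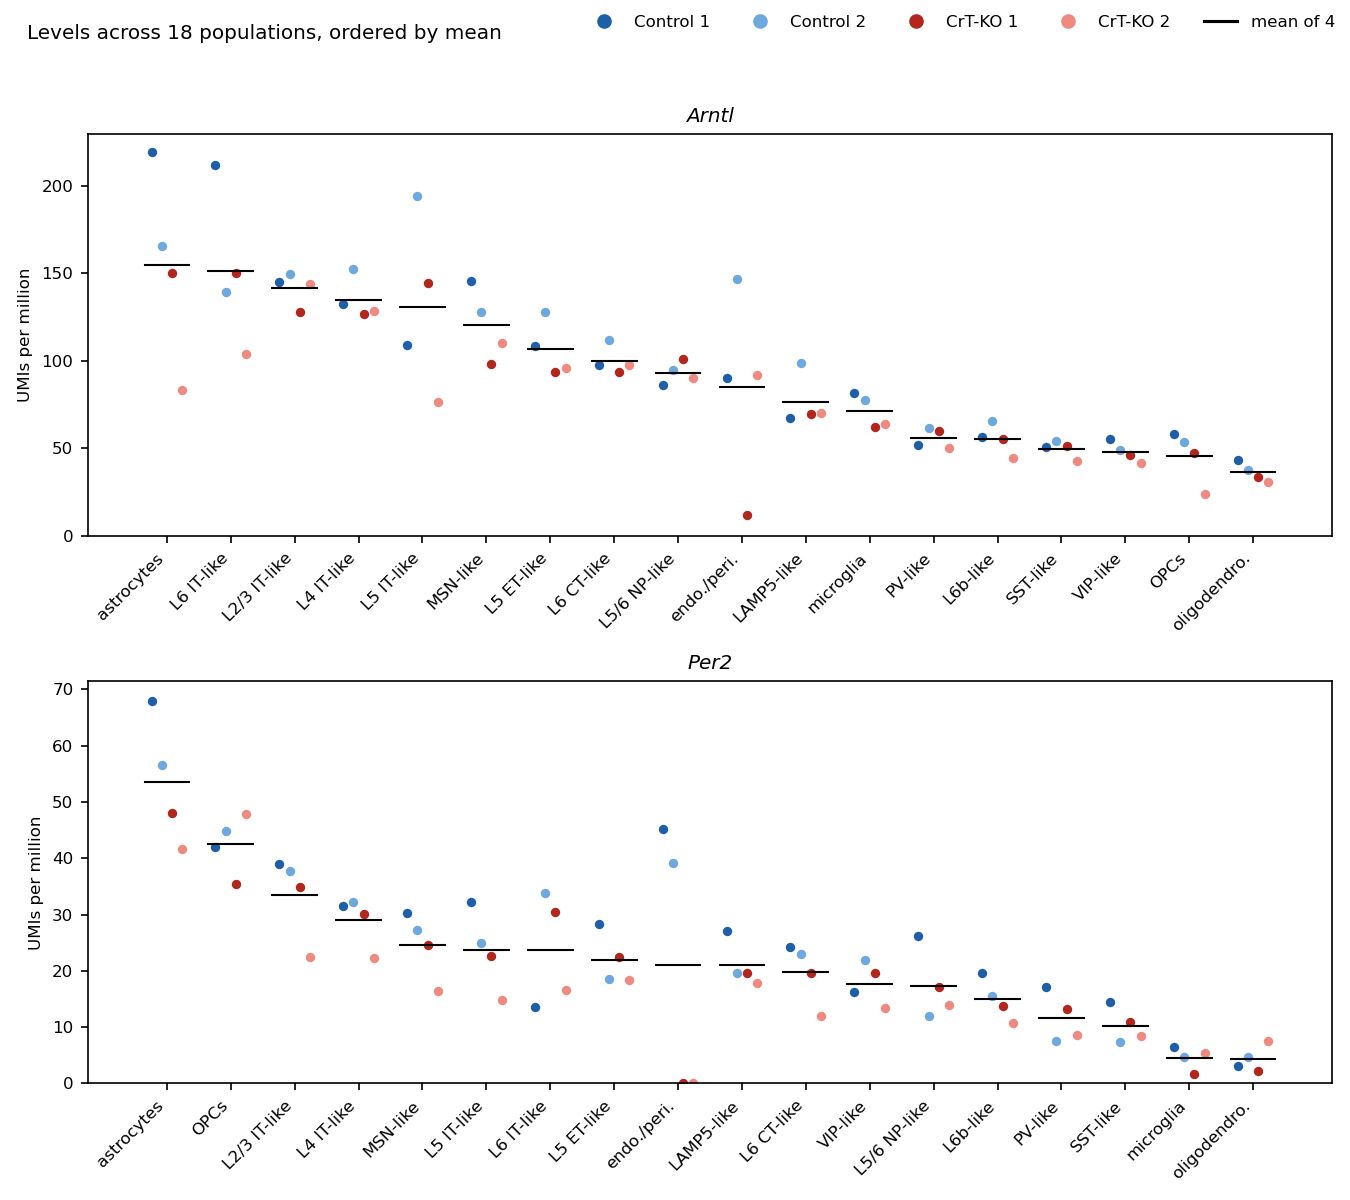
Arntl and Per2 levels (CPM, y axes from 0) in 18 populations ordered by their mean, with 1 point per library and the mean as a bar. Arntl falls from 155 in astrocytes to 36.4 in oligodendrocytes, with PV-like, SST-like and VIP-like nuclei near the lower end, and Per2 falls from 53.6 to 4.40.

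Across these 18 populations (mean of the 4 libraries, log2 of CPM + 1), the member profiles most alike were Per1 and Nr1d2 (Pearson r = 0.69) and Arntl and Nr1d1 (0.68), while Clock and Per2 ran in opposite directions (-0.58). Among 11525 genes, Hlf (0.82), a D-box binding relative of Dbp, Lmo4 (0.81) and Pip4k2c (0.80) were most like Arntl. Adgrl1 (0.86), Pitpnm2 (0.81) and Ift122 (0.81) were most like Per2. Ppp2r5a (0.89), Mrpl41 (0.88) and Mxd1 (0.88) were most like Per1, and Dennd4c (0.87), Pygl (0.86) and Glb1l (0.86) most like Nr1d2. For Clock the closest were Atp8a1 (0.83), Zdhhc9 (0.80) and Tet3 (0.77), for Cry2 Ttc8 (0.81), Sybu (0.80) and Csdc2 (0.79), and for Cry1 Nrep (0.73), Myo16 (0.71) and Fndc5 (0.71). Dbp was closest to Sv2c (0.84), Il20ra (0.68) and Phex (0.68). The points share the same 4 libraries, the populations differ in depth, and the profiles of Nr1d1 and Dbp rest on few UMIs. Oligodendrocytes and microglia, which rank 1 and 3 for Clock, are the populations where the Per2 level was read as background.

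The second comparison was between genotypes within each population. None of the 9 measured members passed the threshold (edgeR adjusted p under 0.1) in any of them. In excitatory neurons 0 of 9 members were called, where 0.159% of 13851 genes were. DESeq2 called 0 as well. At an unadjusted p under 0.05 there were 4 of 9 members, against 8.78% of all genes. Libraries of the genotypes did not overlap for 5 of 9 members, with 2 higher and 3 lower in CrT-KO, against 40.5% of all genes (11.5% higher and 29% lower). The median log2 fold change was 0.11 over the 9 members and -0.0044 over all genes. Each genotype had 2 animals, the spread of which all these p-values rest on.

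The members with the smallest p in excitatory neurons were both repressors. Nr1d1 had 77 and 82 UMIs in the controls and 175 and 105 in CrT-KO, or 2.46, 2.51, 4.57 and 3.44 CPM. Both CrT-KO libraries lay above the controls, which were close to each other (log2 fold change 0.74, SE 0.19, edgeR adjusted p = 0.284). Cry1 stood at 16.5 and 18.8 CPM in the controls, and at 13.3 and 11.5 in CrT-KO. Both CrT-KO libraries were lower (-0.46, SE 0.12, edgeR adjusted p = 0.285). Neither passed the correction over all genes.

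Nr1d2, the second REV-ERB gene, had 36.4 and 28.5 CPM in the control and 42.4 and 36.5 in the CrT-KO excitatory neurons. The groups did not overlap, although the lower CrT-KO library all but met the higher control (0.34, SE 0.11, edgeR adjusted p = 0.409). Per2 had 30.0 and 29.3 CPM in the controls and 26.2 and 18.7 in CrT-KO. Both CrT-KO libraries were lower, with most of the difference in CrT-KO 2 (-0.35, SE 0.13, edgeR adjusted p = 0.457). Arntl had 118 and 127 CPM against 103 and 108, again without overlap, with a smaller difference (-0.17, SE 0.08, edgeR adjusted p = 0.580).

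The remaining members overlapped between genotypes. Clock had 162 and 175 CPM in the controls and 163 and 178 in CrT-KO. Per1 had 18.3 and 15.8 in the controls and 23.9 and 12.1 in CrT-KO, so that the 2 CrT-KO libraries lay on either side of the controls. Cry2 showed the same spread, with 77.7 and 71.5 CPM in the controls and 86.8 and 68.6 in CrT-KO. Dbp had 1.66, 1.19, 2.35 and 1.28.

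**Figure D3:**
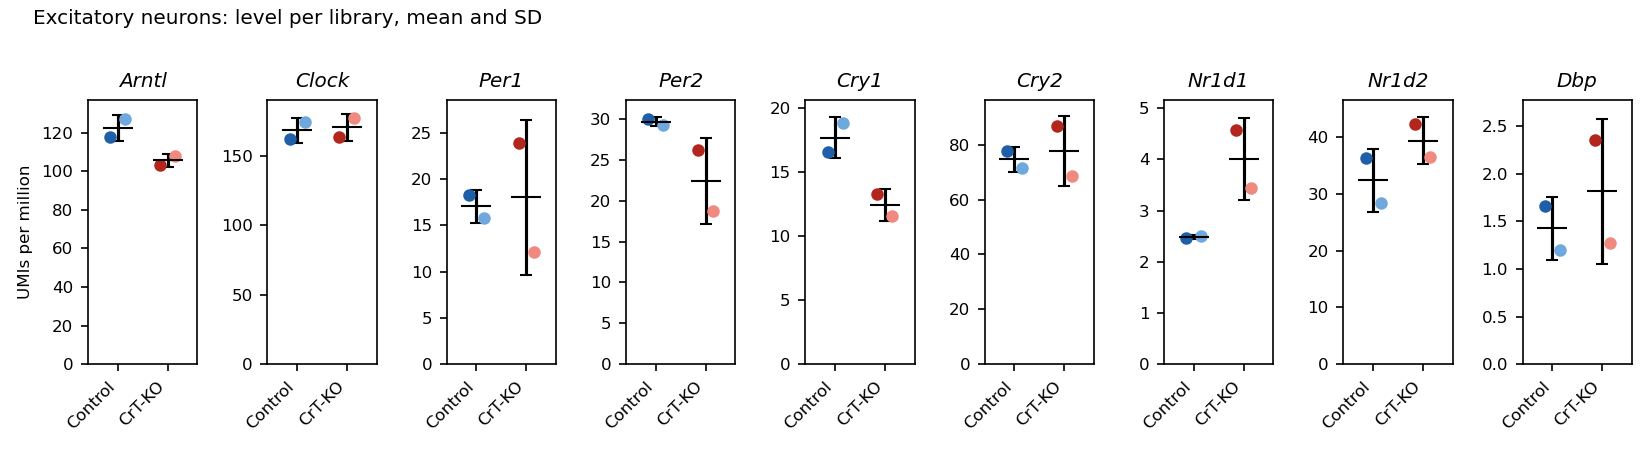
Levels in excitatory neurons (CPM, y axes from 0) of the 9 measured clock genes, with 1 point per library, blue for control and red for CrT-KO, and lighter shades for replicate 2. Bars give the mean and SD of 2 libraries, and the 2 CrT-KO libraries differ most from each other for Per1, Dbp and Per2.

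The fitted differences in excitatory neurons changed when a single CrT-KO library was left out. In these fits the remaining CrT-KO library has no replicate and is assumed to vary like the 2 controls. Their p-values carry no spread among CrT-KO animals, so no calls are given here. Without CrT-KO 1, the log2 fold change was -0.59 for Per2 and -0.55 for Cry1, against -0.35 and -0.46 in the main fit. Without CrT-KO 2, it was 0.52 for Per1, 0.91 for Nr1d1 and 0.42 for Nr1d2, against 0.14, 0.74 and 0.34. Arntl, Per2, Cry1, Nr1d1 and Nr1d2 kept the direction of their difference in 12 of 12 alternatives, whereas Clock did so in 10 and Per1, Cry2 and Dbp in 11.

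In inhibitory neurons, too, no member was called (0 of 9, 0.078% of all genes called, DESeq2 0). At an unadjusted p under 0.05 there were 2 members, against 5.31% of all genes. Arntl had 80.5 and 84.6 CPM in the controls and 69.2 and 70.3 in CrT-KO, with both CrT-KO libraries lower (-0.23, SE 0.09, edgeR adjusted p = 0.834). Cry1 had 19.1 and 16.1 CPM in the controls and 15.2 and 13.1 in CrT-KO (difference -0.29, edgeR adjusted p = 0.940), and Per2 had 20.3 and 18.4 against 18.2 and 12.6. All 3 were below the controls in both CrT-KO libraries, as were 18.9% of all genes. Nr1d1 had 1.93 and 1.79 CPM against 2.10 and 1.58, with the groups overlapping (0.02, SE 0.34).

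Non-neuronal cells gave fewer UMIs and no call. In oligodendrocytes 0 of 6 tested members were called (0.254% of all genes, DESeq2 0) and 0 had an unadjusted p under 0.05 (6.46%). Cry1 there had 14.2 and 11.4 CPM in the controls and 10.0 and 6.14 in CrT-KO on 9 to 19 UMIs a library (-0.67, SE 0.41, edgeR adjusted p = 0.850), the largest difference among the 6. Counts were likewise 0 of 5 in microglia (0.0412%, with 0 at an unadjusted p under 0.05 against 6.57%), 0 of 5 in OPCs (0.129%, 0 against 6.38%) and 0 of 1 in endothelial cells and pericytes (0.0616%, 0 against 6.22%), with DESeq2 calling 0 in each. In astrocytes 0 of 6 were called (0.0203%, DESeq2 0) and 1 had an unadjusted p under 0.05 (4.31%). That gene was Arntl, with 219 and 165 CPM in the controls and 150.3 and 83.5 in CrT-KO, on 26 to 73 UMIs a library (-0.63, SE 0.28, edgeR adjusted p = 0.999).

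Over all nuclei together, 0 of 9 members were called (0.0397% of all genes, DESeq2 0), and 5 had an unadjusted p under 0.05 (6.6%). Arntl (-0.16), Per2 (-0.30) and Cry1 (-0.42) were lower in both CrT-KO libraries and Nr1d1 (0.67) and Nr1d2 (0.31) higher. In these sums a change in the share of a cell type and a change in RNA per cell cannot be told apart.

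**Figure D4:**
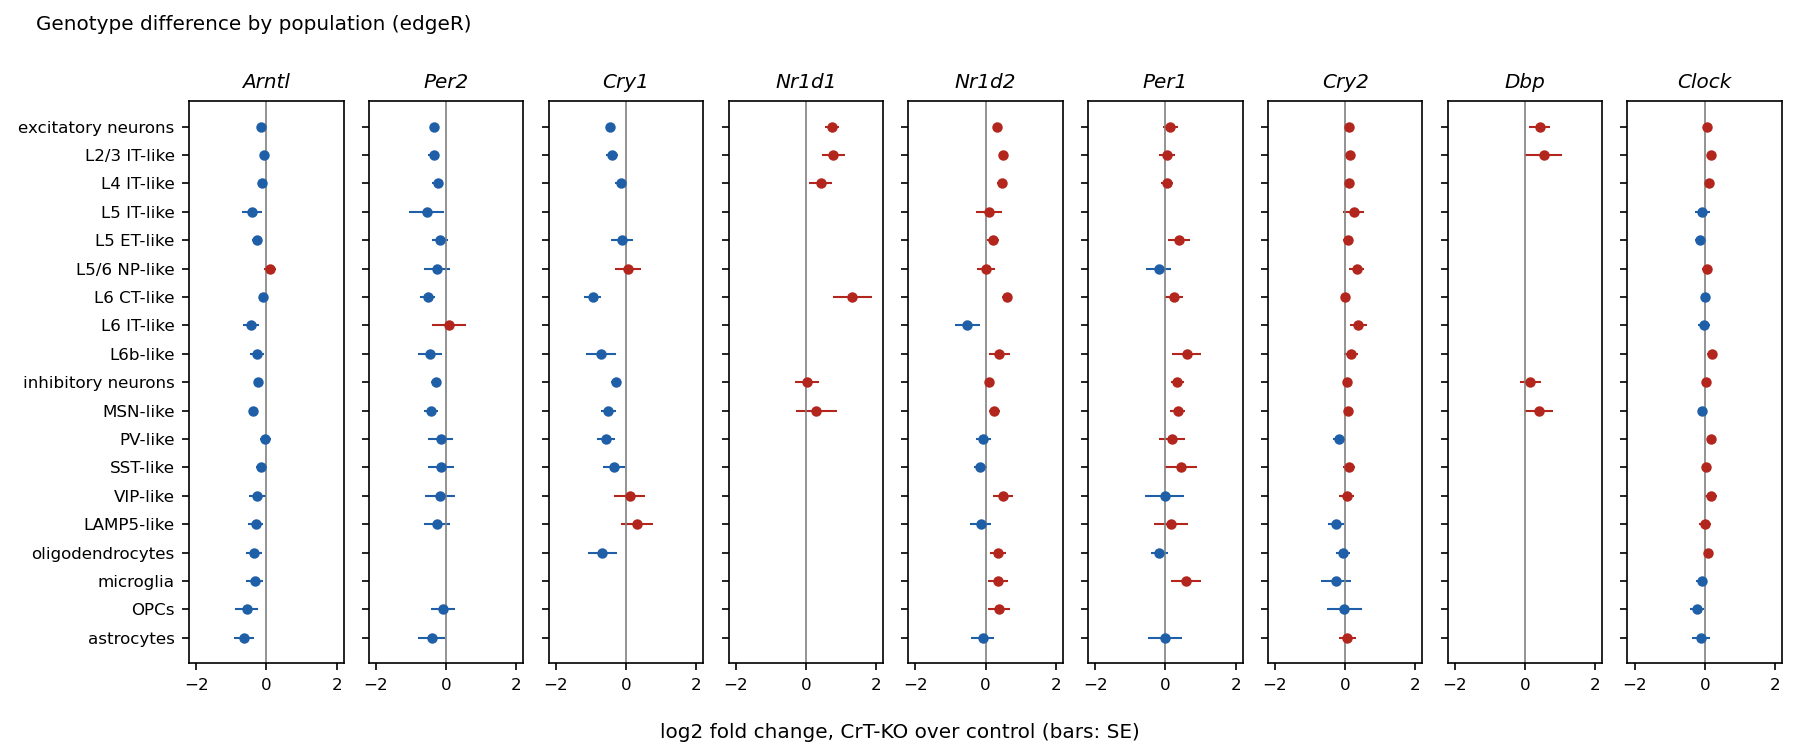
Log2 fold change of CrT-KO over control (x axis, edgeR, bars are SE) for the 9 measured clock genes in each population (rows), red above and blue below 0. In excitatory neurons Nr1d1 (0.74) and Nr1d2 (0.34) lie to the right and Cry1 (-0.46), Per2 (-0.35) and Arntl (-0.17) to the left, and none passed the adjusted threshold.

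Within 13 neuronal subclasses, 93 tests gave 0 calls with edgeR and 14 had an unadjusted p under 0.05, against 0.221% and 6.59% of all gene tests. Nr1d2 came closest to the threshold in L2/3 IT-like nuclei, at 27.5 and 26.8 CPM in the controls and 40.3 and 33.6 in CrT-KO (difference 0.50, SE 0.13, edgeR adjusted p = 0.121), where 0.827% of all genes were called. In L4 IT-like nuclei it had 45.9 and 36.2 against 59.5 and 50.2 (0.47, adjusted p = 0.189, 0.572% of all genes called). Both CrT-KO libraries were above both controls in each. In L6 CT-like nuclei, the corticothalamic neurons, Nr1d1 had 8 and 3 UMIs in the controls and 19 and 9 in CrT-KO (difference 1.33, SE 0.57, edgeR adjusted p = 0.641), and Cry1 was at 13.3 and 13.2 CPM in the controls and 7.43 and 5.85 in CrT-KO (difference -0.95, SE 0.23, edgeR adjusted p = 0.198, 0.153% of all genes called). Nr1d2 had 26.8 and 25.0 against 41.0 and 35.5 there (0.60, adjusted p = 0.195). Cry1 was thus lower and both REV-ERB genes higher in the same nuclei, without passing the correction. An unnamed cluster of 1689 nuclei led by Scn7a and Il1rapl2 had Cry1 at 13.6 and 11.5 CPM against 7.25 and 7.19 (-0.75, adjusted p = 0.314, 0.341% of all genes called). Nr1d2 (0.63, adjusted p = 0.144) and Nr1d1 (1.06, adjusted p = 0.372) were above the controls in both CrT-KO libraries there. In MSN-like nuclei, Arntl had 145 and 128 CPM in the controls and 98.3 and 110.3 in CrT-KO (difference -0.37, edgeR adjusted p = 0.516, 0.0693% of all genes called), both CrT-KO libraries being lower.

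Whether the genotype difference itself varied between cell types was tested for the 4 largest populations. Of 54 tests 0 were called by edgeR (0.131% of all gene tests over the 6 pairs of populations), and 3 had an unadjusted p under 0.05. For Nr1d2 the difference was larger in excitatory than in inhibitory neurons by 0.25 (SE 0.11, edgeR adjusted p = 0.860, 0.138% of all genes called in that pair). A difference between cell types in the effect of the genotype was therefore not shown.

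The pattern by library recurred across populations, which share the same 4 animals and so are not independent. Background RNA from neurons was not removed from the glial counts. Arntl in oligodendrocytes was 31.9% of the excitatory level, within the 9.41% to 47.7% of the excitatory markers. Among the populations with at least 5 UMIs in each library, the CrT-KO mean of Arntl was lower in 16 of 17, with both CrT-KO libraries below both controls in 11. Over all genes tested in the 18 populations, both CrT-KO libraries lay below both controls in 19.9% of cases and above them in 15.5%. The share of all genes with a lower or higher CrT-KO mean was not counted. The counts of means given here can therefore not be judged against it. For Per2 it was lower in 15 of 15 (both below in 7), and for Cry1 in 10 of 14 (8). Nr1d2 was higher in 11 of 17 (both above in 7, both below in 1). Per1 was highest in CrT-KO 1 in 11 of 12 populations and lowest in CrT-KO 2 in 8. In excitatory neurons Per1 was also higher in Control 1 than in Control 2 (18.3 and 15.8 CPM). Cry2 was highest in CrT-KO 1 in 12 of 16, and Per2 was lowest in CrT-KO 2 in 10 of 15.

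**Figure D5:**
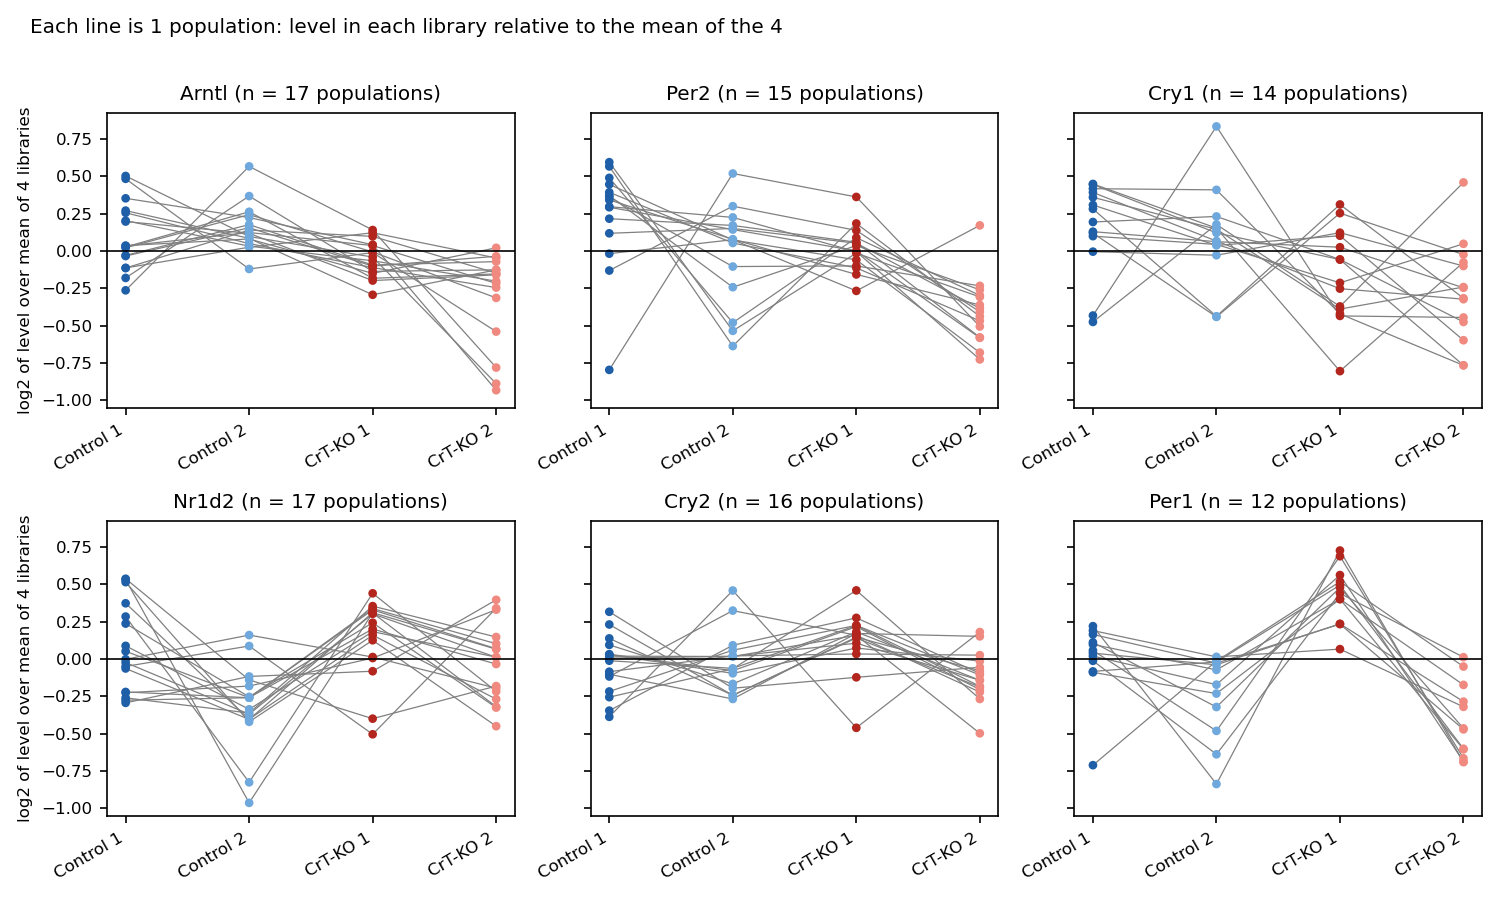
Level of 6 clock genes in each library relative to the mean of the 4 (y axis, log2), with 1 grey line per population that had at least 5 UMIs in each library. Arntl and Per2 tilt down towards the CrT-KO libraries in most populations, and Per1 and Cry2 peak in CrT-KO 1.

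Neuronal activity and glucocorticoid hormone also set the level of period genes, so 2 lists were read in the same libraries. The summed level of 12 immediate-early genes in excitatory neurons was 814 and 753 CPM in the controls and 778 and 629 in CrT-KO, lowest in CrT-KO 2, the library in which Per1 and Per2 were lowest. None of the 12 was called by edgeR (0.159% of all genes), and 5 had an unadjusted p under 0.05 (8.78% of all genes). The summed level of 10 glucocorticoid-responsive genes in excitatory neurons was 525 and 549 CPM in the controls and 604 and 567 in CrT-KO. There, 0 of 9 were called and 1 had an unadjusted p under 0.05. In oligodendrocytes the sum was 1716 and 2643 CPM in the controls and 2731 and 2969 in CrT-KO. Of the genes tested there, 2 of 9 were called by edgeR (0.254% of all genes), as was 1 of 6 in microglia (0.0412%). The remaining populations had 0 calls. The part of either in the clock gene levels was not tested.

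Of 30 other clock genes (regulators, kinases, ubiquitin ligases and outputs), Rbm4, which like Per3 lies within another gene on its strand, had 0 UMIs. Between excitatory and inhibitory neurons 17 of 23 tested were called (63.7% of all genes), 15 of them higher in excitatory neurons. The largest differences were in Rorb (3.38), a ROR receptor and layer 4 marker, Bhlhe40 (2.27), an E-box repressor, Cdkn1a (1.21), a cell cycle inhibitor, and Hlf (1.00). Against oligodendrocytes 18 of 23 were called (77.7% of all genes), 11 higher and 7 lower in neurons, led by Npas2 (3.57), which can replace Clock as the partner of Arntl, Hlf (3.19), Rora (2.99) and Arntl2 (2.84). Against astrocytes 18 of 23 were called (60.3% of all genes), 14 of them higher in astrocytes, with Rorb (-2.69) and Rora (-1.25), the activators that compete with REV-ERB at ROR elements, and Tef (-1.11), another relative of Dbp, among them, while Arntl2 (1.69) was higher in neurons. Per genotype, excitatory neurons had 0 of 28 called by edgeR and 1 with an unadjusted p under 0.05, with a median log2 fold change of 0.03. The most abundant 3 there were Rora, Npas2 and Btrc, with log2 fold changes of -0.04, 0.10 and 0.09.

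Por, an electron donor for cytochrome P450 enzymes and a clock output in liver, was the only one of the 30 called between genotypes in any of the 7 populations. In oligodendrocytes it had 27.7 and 29.9 CPM in the controls and 49.5 and 64.8 in CrT-KO. Both CrT-KO libraries lay well above the controls (log2 fold change 0.96, SE 0.22, edgeR adjusted p = 0.0740). The call was lost without CrT-KO 2 (0.73, adjusted p = 0.553), without Control 1 (0.91, adjusted p = 0.149) and with DESeq2 (adjusted p = 1.00).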

How the data were processed

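Nuclei of the right cortex were sequenced with a 10x Genomics 3′ kit (v2). Per the study's methods, the authors used FastQC and Cell Ranger 3.1.0 with a GRCm38 (mm10) reference in which the whole gene body counts as exon, and their deposited files hold raw UMI counts per gene and nucleus, filtered by the authors to nuclei with over 300 genes. The submitters' processing notes also name Seurat 3.1.4. No cell annotation was used here, so population names are rebuilt and may differ from the study's.

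Doublets were marked with Scrublet in scanpy 1.11.5 (Python 3.11.15) and removed from each library (2.83% to 4.16%). Nuclei were scaled to 10000 counts, and 3000 variable genes without any clock gene, 30 principal components, 20 neighbours and Leiden resolution 1.0 gave 44 clusters. A cluster was named from marker lists, with at least 3 markers detected in 10% of its nuclei. Rival lists could not outnumber the chosen list among its 10 leading genes, so a cluster with no marker there passed. Every named excitatory and inhibitory cluster had no marker of its class there. Naming also used a minimum of 20 nuclei and a limit on low UMI counts, and 7 clusters stayed unnamed. Among these were 750 nuclei led by Enpp6 and Slc5a11, with 13 oligodendrocyte markers detected and a median UMI count 0.299 relative to the library. The 10 members and all lists were chosen with earlier results of these data known. Counts were summed per library and population. Genotypes and population pairs were compared with edgeR 4.0.16 (R 4.3.3) quasi-likelihood fits with TMM scaling, filterByExpr (minimum count 10, total 15) and Benjamini-Hochberg adjustment over all genes tested, with a threshold of 0.1. Population pairs were fitted together with library as a block. The scripts were tested on simulated data. Alternatives were DESeq2 1.42.0, no filter, replicate blocks, each library left out, doublets kept and Leiden resolution 0.5. Crossed pairing, naming without the leading-gene rule and library totals in place of TMM were added after seeing the data. Text names all members, of the other clock genes up to 4 called with the largest change (otherwise the 3 with most UMIs), and for each member the 3 genes of most similar profile among those with at least 10 CPM somewhere. For Nr1d1 the genes of most similar profile are not reported here. The 2 libraries per genotype are separate animals. Each SE is from the edgeR fit and includes the spread between libraries, and each ± value is an SD over libraries. Sequences are from RefSeq GRCm38.p6, and 99.5% of genes matched the annotation by identifier.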

Additional observations from a re-analysis of the deposited data

How the results depend on the processing

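With 2 libraries per genotype, the count of members called between genotypes was 0 in all 8 comparisons with edgeR, and it stayed 0 with DESeq2, without a filter on low counts, with doublets kept, at Leiden resolution 0.5, with other cluster names and with library totals wherever these were run. Leaving out 1 library at a time, which leaves an arm of 1 library that is assumed to vary like the other group, gave 0 to 1 calls over all nuclei (Per2 without CrT-KO 1, -0.50, adjusted p = 0.0914) and 0 to 3 in excitatory neurons, as given above. With the replicate number as a block, 2 members were called over all nuclei (Cry1, -0.43, adjusted p = 0.0874, and Nr1d2, 0.31, adjusted p = 0.0742) and 4 in excitatory neurons (Per2, -0.36, adjusted p = 0.0238, Cry1, -0.46, adjusted p = 0.0117, Nr1d1, 0.74, adjusted p = 0.0217, and Nr1d2, 0.34, adjusted p = 0.00698). The share of all genes called in these blocked fits is not given here, so these counts cannot be judged against it. Nothing in the labels pairs the numbers, and only 2 pairs exist. Over all genes, deviations of same-numbered libraries correlated at 0.0261 to 0.194, and the main fits treated the samples as unpaired. In excitatory neurons, however, Per1, Per2, Cry2, Nr1d2 and Dbp were higher in replicate 1 of both genotypes, and Arntl and Clock in replicate 2. Cry1 and Nr1d1 did not go the same way in both genotypes. With 2 pairs, a factor shared by number and differences between single animals cannot be told apart. The crossed pairing gave 0 calls.

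Of the 85 calls between populations, 76 to 83 were called in the same direction under each alternative other than scaling, and 67 with library totals. That scaling turned the sign of 4 calls, all of Clock, which were excitatory minus microglia (0.54 to -0.15), inhibitory minus microglia (0.33 to -0.20, adjusted p = 0.0450, so called the other way), excitatory minus endothelial cells and pericytes (0.77 to -0.07) and inhibitory minus endothelial cells and pericytes (0.55 to -0.12). With doublets kept, oligodendrocytes minus OPCs turned for Arntl (-0.44 to 0.17, no longer called). Of differences not called with TMM, library totals turned and called excitatory minus astrocytes for Arntl (-0.36, adjusted p = 0.0157) and, for Nr1d2, excitatory minus microglia (-0.65, adjusted p = 0.000273) and excitatory minus inhibitory neurons (-0.14, adjusted p = 0.0320). Depth limits Nr1d1, Dbp and the small populations most.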
